A study of Mus musculus with 36 samples.

Results

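Muscle actins, tropomyosins and smooth muscle genes of the mouse heart are described here through 10 genes: *Actc1*, *Acta1*, *Tpm1*, *Tpm2*, *Acta2*, *Actg2*, *Tagln*, *Cnn1*, *Myh11* and *Smtn*. They were taken by gene symbol from the annotated table of array values and are 10 of 20701 genes, read by 19 of 45101 probe sets. Poly(A)-RNA of heart tissue from OF1 mice was measured on Affymetrix Mouse430_2 arrays, with 3 arrays at each of 12 stages and 36 arrays in all. The embryonic hearts were collected daily from E10.5 to E19.5, and mature hearts came from young adults of 10 weeks and from old adults, given as 14 months old in the design text and as younger in the study's methods. At E10.5 and E11.5 every array held mixed males and females, and from E12.5 on each stage had 1 female, 1 male and 1 mixed array. The labels name no treatment and no genetic change in any group. The values are log2 intensities, so that a difference of 1 is a 2-fold change.

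Actins and tropomyosins build the thin filament of muscle. *Actc1* and *Acta1* encode the cardiac and the skeletal sarcomeric alpha actins, and both are used by heart muscle cells, while *Acta2* and *Actg2* encode the actins of vascular and enteric smooth muscle. *Tagln*, *Cnn1*, *Smtn* and *Myh11* encode transgelin, calponin, smoothelin and the smooth muscle myosin heavy chain. The early embryonic myocardium is known to use several of these smooth muscle genes before the coronary arteries acquire their smooth muscle coat. Many of them are known targets of serum response factor, which binds a DNA element called the CArG box.

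The RefSeq table of promoters (GRCm38.p6) held 7 of the 10 genes, each as a window of 300 bases from 250 before to 50 after a start site. For *Actc1*, *Acta1* and *Smtn* that site is the outermost start of the gene, and for *Tpm1*, *Tpm2*, *Acta2* and *Cnn1* it lies inside the annotated gene, at 34255373 for *Acta2*. The CArG box, CC, then 6 letters that are A or T, then GG, reads the same way on both strands. It was present in the windows of *Actc1* and *Acta1*, and 1.81% of the 27025 genes in the table had one. With 1 letter of the middle 6 allowed to be C or G, a search added after the exact one, the window of *Acta2* held such an element too, as did 11.3% of genes. The windows of *Tpm1*, *Tpm2*, *Cnn1* and *Smtn* held neither form. The elements nearest to the start site in *Actc1* and *Acta1* are shown with 10 bases on either side, together with the 2 of *Acta2*, because these are the actins whose levels are compared next. Capitals mark the element, and all 4 are written along the minus strand, that of these genes.
Actc1, chr2:114052903-114052932: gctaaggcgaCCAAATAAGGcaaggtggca
Acta1, chr8:123894829-123894858: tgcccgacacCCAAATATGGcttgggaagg
Acta2, chr19:34255438-34255467: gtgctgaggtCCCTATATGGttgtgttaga
Acta2, chr19:34255388-34255417: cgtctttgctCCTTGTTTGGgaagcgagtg
The elements begin 47 bases before the start site of the *Actc1* window, 73 before that of *Acta1*, and 84 and 34 before that of *Acta2*, where they lie within the annotated gene. A match describes these letters only.

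The arrays of 1 stage correlated at Pearson's r of 0.9693 to 0.9964 over all probe sets. All 6 measured cardiomyocyte markers had stage means above 5 at every stage, the level that the study's methods took as expressed. The extraction protocol of the labels names liver, whereas none of 6 liver markers had a stage mean above 5, and the mean of these markers stayed between 3.26 and 3.87 on every array. Control probe sets moved with stage. The 3′ minus 5′ difference of the *Actb* controls, which grows as RNA or its labelled copy gets shorter, had stage means of 2.86 at E10.5, between 3.99 and 4.25 from E13.5 on through E19.5, and 2.83 in young adults. That of *Gapdh* was 2.80 at E10.5, between 3.86 and 4.82 over the same later days, and 1.84 in young adults. The title prefix of the samples also changes from the E16.5 female array on, and what it stands for is not given in the sources used here. With 12 stage means in the fit, its effect is estimated within E16.5 alone, as 1 female array against the male and mixed ones. There it cannot be told apart from sex or from that array, so a call lost with it as a covariate does not test it. The hybridization controls averaged 12.17 in young adults, 11.16 on E19.5 arrays and 9.90 on E10.5 arrays. Their ranges were 12.03 to 12.43, 10.97 to 11.39 and 9.68 to 10.35, without overlap, the 10.35 being that of the third E10.5 array. A fit with them as a covariate carries the trend within stages across these gaps, so that control level and stage cannot be told apart. In heart tissue, fewer cells of a type and less RNA per cell cannot be told apart.

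**Figure D1:**
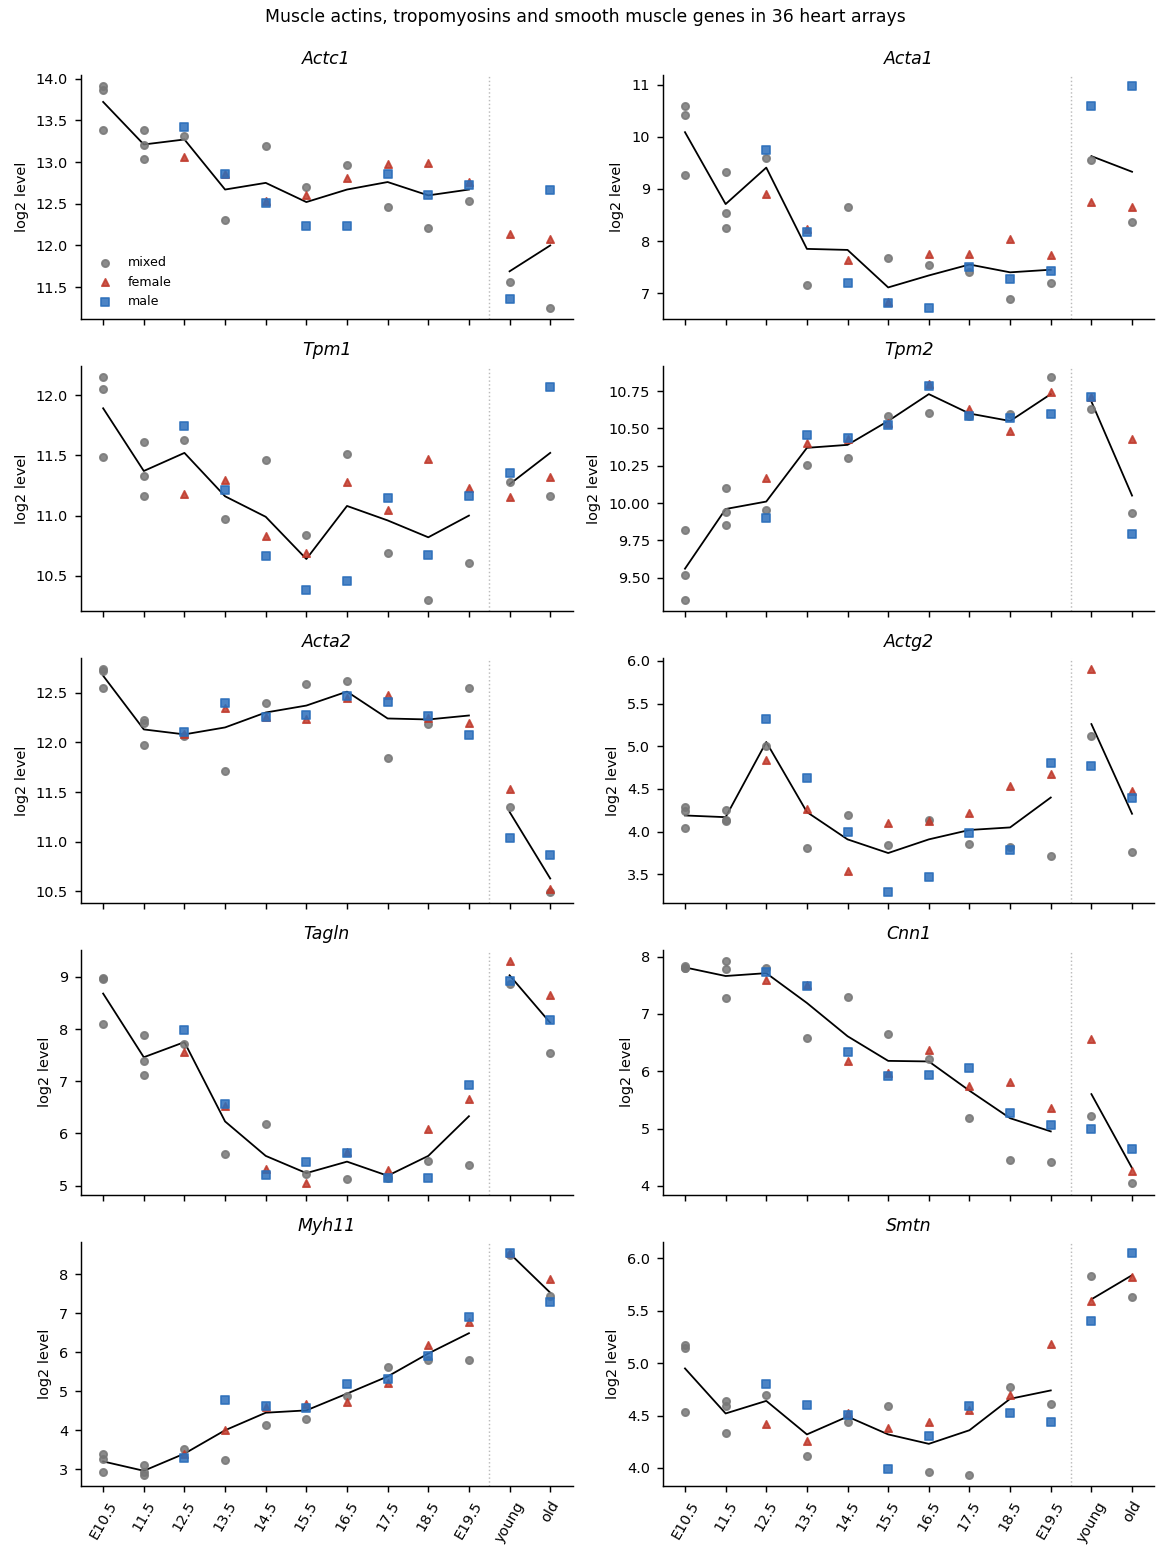
Log2 level of each gene (vertical axes, scaled for each gene) on each of the 36 arrays by stage (horizontal axis), with symbols for mixed, female and male arrays and lines through the stage means. *Myh11* climbs from 3.20 at E10.5 to 8.54 in young adults, *Cnn1* falls through the embryonic days, and *Tagln* and *Acta1* are low in the later embryonic days and high at both ends.

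The sarcomeric actins ran apart. *Actc1* (chromosome 2, 114047282 to 114052875 in GRCm38.p6) fell from embryo to adult. Its 3 arrays at E10.5 read 13.86, 13.92 and 13.38, those at E19.5 read 12.76, 12.72 and 12.54, and the young adult arrays read 11.36, 11.57 and 12.13. These 3 groups did not overlap. E10.5 was 4.09-fold higher than young adult (log2 difference 2.03, SE 0.268, limma adjusted p = 1.4e-07) and 2.06-fold higher than E19.5 (1.05, SE 0.268, adjusted p = 0.0022). *Actc1* was above young adult at all 10 embryonic stages, and no embryonic stage overlapped with the young adult arrays. Old adult arrays read 12.67, 11.25 and 12.07, a spread that covered the young adult values (difference 0.31, SE 0.268, adjusted p = 0.52). Among arrays of 1 stage, *Actc1* ran against the hybridization controls (r = -0.80 over 36 arrays, a description). With these controls as a covariate the difference between E10.5 and young adult was 0.08 (adjusted p = 0.91), and that between E10.5 and E19.5 was -0.03 (adjusted p = 0.95). The 3′ minus 5′ difference was used as a covariate after the values were seen. With it, E10.5 against E19.5 was 0.86 (adjusted p = 0.051), and the E15.5 call against young adult was lost.

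*Acta1* (chromosome 8, 123891758 to 123894775) fell early and was high again in the mature heart. The E10.5 arrays read 10.59, 10.43 and 9.26. The stage mean of E12.5 was 9.41 ± 0.45 (SD, n = 3), that of E13.5 was 7.85 ± 0.60, and the lowest was 7.11 ± 0.49, reached at E15.5. At E19.5 the arrays read 7.72, 7.42 and 7.20, below all young adult arrays at 10.59, 9.56 and 8.75. E10.5 was 6.27-fold above E19.5 (2.65, SE 0.509, adjusted p = 9.5e-05), and E19.5 was below young adult (-2.19, SE 0.509, adjusted p = 0.0012). E10.5 and young adult overlapped (0.46, SE 0.509, adjusted p = 0.43). *Acta1* was called below young adult at 7 of 10 embryonic stages, each stage from E13.5 to E19.5. Over the 12 stage means *Acta1* ran against the 3′ minus 5′ controls (r = -0.89), and within stages at r = -0.34. With that difference as a covariate, chosen after the values were seen, E19.5 against young adult was -1.20 (adjusted p = 0.30). The calls below young adult from E13.5 to E18.5 were all lost as well. With the hybridization controls as a covariate, E10.5 against E19.5 was 1.13 (adjusted p = 0.19).

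Within each array, *Acta1* minus *Actc1* was computed to see how the 2 actins moved relative to each other. Set to 0 at E10.5, this difference was -1.60 ± 0.17 (SD, n = 3) on E19.5 arrays, 1.57 ± 1.31 in young adults and 0.96 ± 0.89 in old adults. All arrays from E13.5 to E19.5 lay between -2.16 and -0.92, and all adult arrays between 0.19 and 2.85. The adult arrays spread widely, with the male array highest for *Acta1* at both ages (10.59 and 10.98) against 8.75 and 8.64 on the female arrays.

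The 2 tropomyosin genes, whose coiled-coil proteins lie along the actin filament, changed in opposite directions on the probe sets with the highest mean. *Tpm1* (chromosome 9, 67022590 to 67049672) read 12.15, 12.05 and 11.48 at E10.5 and 11.23, 11.17 and 10.61 at E19.5, without overlap (0.89, SE 0.276, adjusted p = 0.0094). This call was lost with the mean of all probe sets (0.30, adjusted p = 0.37), with the 3′ minus 5′ difference (0.60, adjusted p = 0.17) or the title prefix (1.19, adjusted p = 0.11) as a covariate, and without E10.5 replicate 1 (0.77, adjusted p = 0.051) or E19.5 replicate 3 (0.70, adjusted p = 0.076). Against young adult, at 11.36, 11.28 and 11.16, the difference was 0.63 (SE 0.276, adjusted p = 0.047). This call was lost without the first or second E10.5 array (0.50, adjusted p = 0.16, and 0.55, adjusted p = 0.13) or without any 1 young adult array, and with the hybridization controls as a covariate it turned to -1.36 (adjusted p = 0.0038). *Tpm2* (chromosome 4, 43513726 to 43523583) rose. Its E10.5 arrays read 9.52, 9.35 and 9.82, its E19.5 arrays 10.74, 10.60 and 10.84, and its young adult arrays 10.71, 10.63 and 10.71. E10.5 lay 1.17 below E19.5 (log2 difference -1.17, SE 0.134, adjusted p = 3e-08) and 1.12 below young adult (-1.12, SE 0.134, adjusted p = 2e-08), and neither pair of groups overlapped. Within arrays, *Tpm2* minus *Tpm1* rose by 2.06 ± 0.44 (SD, n = 3) from E10.5 to E19.5 and stood at 1.75 ± 0.11 in young adults and 0.87 ± 0.72 in old adults.

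The probe sets of a tropomyosin gene did not run alike in the mature heart. For *Tpm2*, 1419738_a_at and 1425028_a_at were both lower at E10.5 than in young adults, by -1.12 and -1.53 (SE 0.153, adjusted p = 5.6e-10). In contrast, 1419739_at read 6.18, 5.89 and 6.0 at E10.5 and 5.06, 4.45 and 4.30 in young adults, a difference of 1.42 the other way (SE 0.188, adjusted p = 1.4e-07). E19.5 was 1.85 above young adult on this probe set (SE 0.188, adjusted p = 3.6e-09), whereas 1419738_a_at gave 0.04 (adjusted p = 0.85). The remaining *Tpm2* probe set, 1449577_x_at, had no stage mean above 5. For *Tpm1*, E10.5 minus young adult was 1.42 on 1456623_at (SE 0.423, adjusted p = 0.0048), -0.19 on 1423721_at (adjusted p = 0.46) and -0.76 on 1447713_at (adjusted p = 0.061). Tropomyosin transcripts are known to be spliced in many forms. Which of them each probe set reads was not tested.

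**Figure D2:**
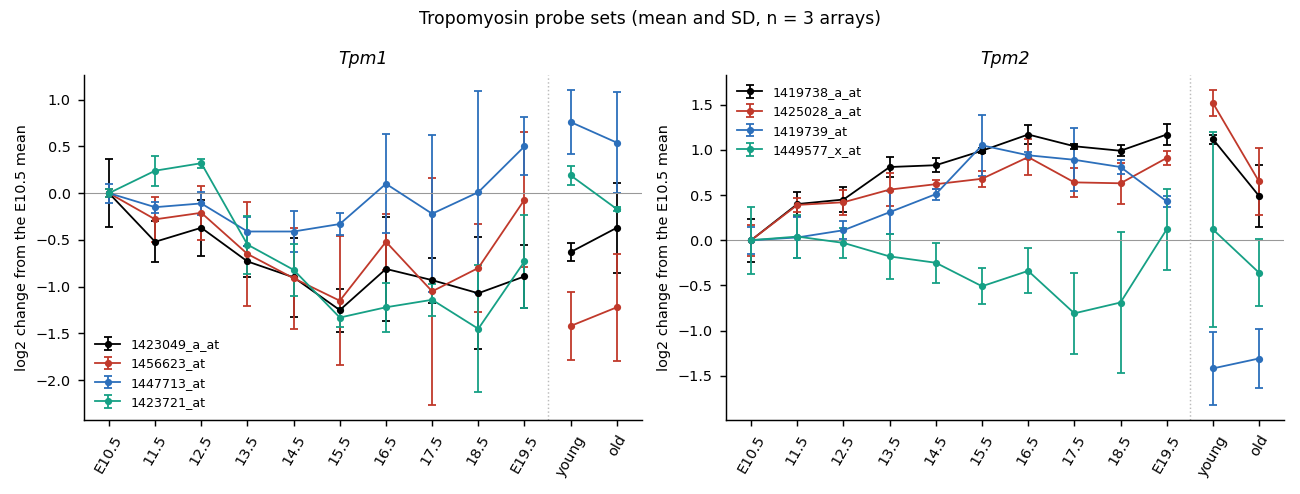
Change of the stage mean from E10.5 (log2, vertical axis; bars are the SD of 3 arrays) over the 12 stages for the 4 probe sets of *Tpm1* and the 4 of *Tpm2*. In young adults, 1419739_at of *Tpm2* lies 1.42 below its E10.5 level while 1425028_a_at lies 1.53 above.

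*Acta2* (chromosome 19, 34240336 to 34255585), the vascular smooth muscle actin, was high throughout the embryonic series and lower in adults. Its embryonic stage means ranged from 12.08 at E12.5 to 12.67 at E10.5. They did not pass the test for any change over the 10 embryonic stages (limma F-test, adjusted p = 0.092), though *Acta2* was called with quantile normalization, with centring, with either other choice of probe set and with the hybridization controls as a covariate. The E10.5 arrays read 12.74, 12.54 and 12.72, the young adult arrays 11.04, 11.35 and 11.53, and the old adult arrays 10.86, 10.50 and 10.53. The 3 groups did not overlap. E10.5 was 2.57-fold above young adult (1.36, SE 0.170, adjusted p = 4.7e-08), and all 10 embryonic stages were above it. With the hybridization controls as a covariate the difference was 0.64 (adjusted p = 0.13). With the 3′ minus 5′ difference as a covariate, the calls at E13.5 and E18.5 against young adult were lost. The probe set is of the s_at kind, whose probes can match more than 1 gene of a family, and the share of other actins in its signal was not tested. The other 2 probe sets of *Acta2* had no stage mean above 5, and one of them, 1444105_at, gave E19.5 minus young adult as -0.68 (adjusted p = 0.017), against 0.97 (SE 0.170, adjusted p = 4.1e-05) on the main one. The other, 1456658_at, gave 0.85 (SE 0.247, adjusted p = 0.0089).

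*Actg2* (chromosome 6, 83512909 to 83536251), the enteric smooth muscle actin, stayed low. Only E12.5 (5.05 ± 0.24, SD, n = 3) and young adult (5.26 ± 0.58) had means above 5. Young adult arrays read 4.77, 5.12 and 5.90, against 4.29, 4.25 and 4.04 at E10.5, without overlap. E10.5 was lower by -1.07 (SE 0.286, adjusted p = 0.0019), and 9 of 10 embryonic stages were called lower than young adult, E12.5 being the exception. The E19.5 arrays overlapped with the young adult ones, and their call was lost with only these arrays in the fit (-0.87, adjusted p = 0.082). With the 3′ minus 5′ difference as a covariate, E10.5 was the single embryonic stage still called. With the title prefix as a covariate the difference at E10.5 was -0.75 (adjusted p = 0.27).

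*Myh11* (chromosome 16, 14194527 to 14292188), the myosin that marks differentiated smooth muscle, rose more than any other of the 10 genes. At E10.5 its arrays read 3.4, 3.27 and 2.94, and the E19.5 arrays read 6.77, 6.90 and 5.80. The young adult arrays were close together at 8.55, 8.50 and 8.56, and the old adult arrays read 7.29, 7.45 and 7.87. None of these 4 groups overlapped. The stage means were 2.96 for E11.5, 4.94 for E16.5 and 6.49 for E19.5. Young adult was 40.4-fold above E10.5 (log2 difference of E10.5 minus young adult -5.34, SE 0.259, adjusted p = 2.6e-17), and E19.5 lay between them (-3.29 for E10.5 minus E19.5, adjusted p = 1.4e-11; -2.04 for E19.5 minus young adult, adjusted p = 2.2e-07). It was below young adult at all 10 embryonic stages and below E19.5 at 8 of 9, the exception being E18.5. Up to E16.5 the stage means were below 5, so that the fold is taken against a level not counted as expressed. Under the alternative settings E10.5 minus young adult ranged from -5.86 to -2.96 and was called in each. The second probe set, 1418122_at, had no stage mean above 5.

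*Cnn1* (chromosome 9, 22099221 to 22109221), which encodes the actin-binding calponin of smooth muscle, went the other way through the embryo. Its E10.5 arrays read 7.83, 7.80 and 7.80, its E19.5 arrays 5.35, 5.06 and 4.42, and its young adult arrays 4.99, 5.22 and 6.57. E10.5 was above both, by 2.87 (7.29-fold, SE 0.351, adjusted p = 1e-07) and 2.22 (4.65-fold, SE 0.351, adjusted p = 3e-06), without overlap. The E19.5 mean of 4.95 was below 5, so that the 7.29-fold is taken against a level not counted as expressed. *Cnn1* was above E19.5 at each stage from E10.5 to E16.5. With the hybridization controls as a covariate, E10.5 against young adult was 0.13 (adjusted p = 0.90), while E10.5 against E19.5 was still called.

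*Tagln* (chromosome 9, 45929628 to 45936058), which encodes the actin-binding transgelin, fell and rose again. The arrays read 8.96, 8.98 and 8.10 at E10.5, and the stage means were 7.75 ± 0.22 (SD, n = 3) for E12.5, 6.23 ± 0.55 for E13.5 and 5.19 ± 0.09 for E17.5, the lowest. The E19.5 arrays read 6.66, 6.92 and 5.39, and the young adult arrays 8.93, 8.86 and 9.30. E10.5 was 5.11-fold above E19.5 (2.35, SE 0.334, adjusted p = 1.2e-06), and E19.5 was below young adult by -2.71 (SE 0.334, adjusted p = 1.4e-07). E10.5 and young adult overlapped (-0.35, SE 0.334, adjusted p = 0.35), though this difference was called with quantile normalization (-0.75, adjusted p = 0.046), with the arrays centred on expressed probe sets (-0.88, adjusted p = 0.0087) and with the hybridization controls as a covariate (-1.83, adjusted p = 0.018). *Tagln* ran against the 3′ minus 5′ controls over stage means (r = -0.90) and at r = -0.32 within stages. With that difference as a covariate both E10.5 against E19.5 and E19.5 against young adult were still called.

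*Smtn* (chromosome 11, 3517522 to 3539292), which encodes the cytoskeletal protein smoothelin of contractile smooth muscle, was low in the embryo and higher in adults. Its embryonic stage means lay between 4.23 and 4.95 and those of young and old adults at 5.61 ± 0.22 and 5.84 ± 0.21 (SD, n = 3). It was below young adult at all 10 embryonic stages, without overlap, with -1.38 at E16.5 (SE 0.204, adjusted p = 1.7e-06) and -0.65 at E10.5 (SE 0.204, adjusted p = 0.0067). Without the third E10.5 array the latter was -0.45 (adjusted p = 0.073), and with the title prefix as a covariate -0.35 (adjusted p = 0.47). Its stage means too ran against the 3′ minus 5′ controls (r = -0.90), and with them as a covariate E19.5 against young adult was -0.68 (adjusted p = 0.14). The call at E18.5 was lost as well.

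**Figure D3:**
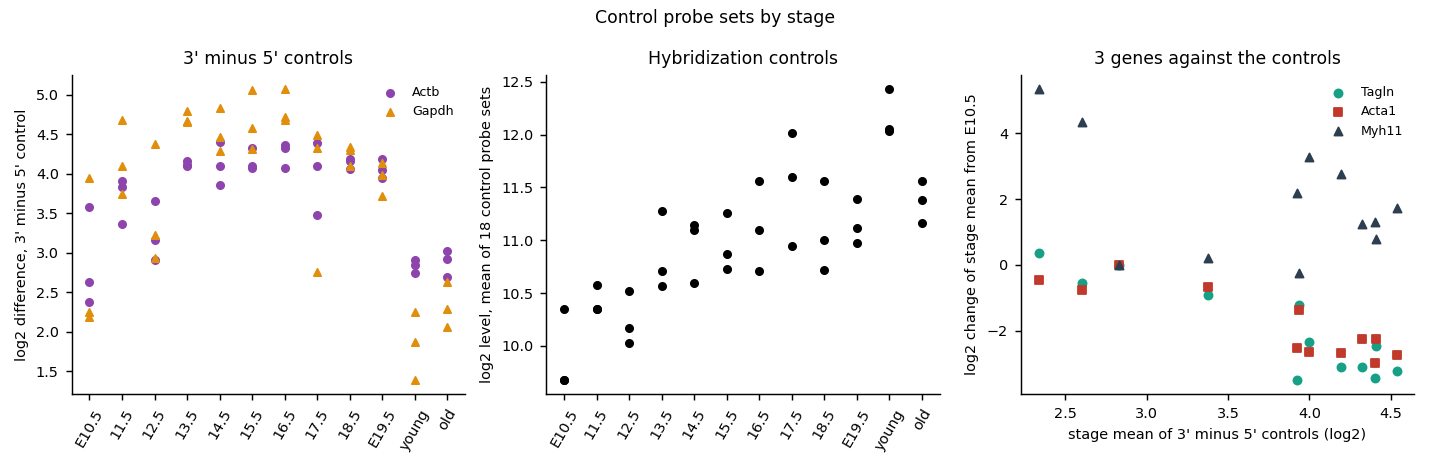
Left, the 3′ minus 5′ difference of the *Actb* and *Gapdh* control probe sets on each array by stage; middle, the mean log2 level of 18 hybridization control probe sets on each array; right, the change of the stage means of *Tagln*, *Acta1* and *Myh11* from E10.5 against the stage mean of the 3′ minus 5′ controls. *Tagln* and *Acta1* are low in the stages with a high 3′ minus 5′ difference (r = -0.90 and -0.89 over 12 stages), and *Myh11* follows it less (r = -0.44).

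Counted over the 10 genes, E10.5 against young adult gave 4 higher (*Actc1*, *Tpm1*, *Acta2* and *Cnn1*) and 4 lower (*Tpm2*, *Actg2*, *Myh11* and *Smtn*). Over all genes, 28.5% were called higher and 38.6% lower in this comparison. The median difference was 0.05 over the 10 genes and -0.21 over all genes. At the stricter limits of the study's methods for differentially expressed genes (adjusted p under 1e-05, absolute log2 difference above 2, a stage mean above 5), *Actc1* and *Cnn1* were higher, as were 5.14% of all genes, and *Myh11* lower, as were 2.64%. *Actc1* and *Cnn1* lie close to the limit: with quantile normalization, with centring on expressed probe sets, with the 6 arrays alone, or without the first or second E10.5 array or the male or mixed young adult array, *Myh11* alone passed. With the hybridization controls as a covariate 0 of the 10 were called higher and 7 lower.

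E10.5 against E19.5 gave 5 higher (*Actc1*, *Acta1*, *Tpm1*, *Tagln* and *Cnn1*), against 23.6% of all genes, and 2 lower (*Tpm2* and *Myh11*), against 26.2%. The strict limits kept *Tagln* and *Cnn1* as higher (1.52% of all genes) and *Myh11* as lower (1.00%). The median difference was 0.64 over the 10 genes and -0.16 over all genes. With the 6 arrays of E10.5 and E19.5 alone, none of the 10 passed the strict limits, though the count at an adjusted p under 0.05 stayed at 7.

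E19.5 against young adult gave 2 higher (*Actc1* and *Acta2*), against 17.0% of all genes, and 5 lower (*Acta1*, *Actg2*, *Tagln*, *Myh11* and *Smtn*), against 14.7%. The median difference was -0.76 over the 10 genes and -0.05 over all genes. With the 3′ minus 5′ difference as a covariate, *Actc1*, *Acta2*, *Tagln* and *Myh11* kept their calls and *Acta1*, *Actg2* and *Smtn* did not. Over the 21 comparisons of a stage with young adult or E19.5, which share these reference arrays, 44 of 210 gene comparisons were called higher and 68 lower, beside 16.5% and 16.6% over all genes.

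**Figure D4:**
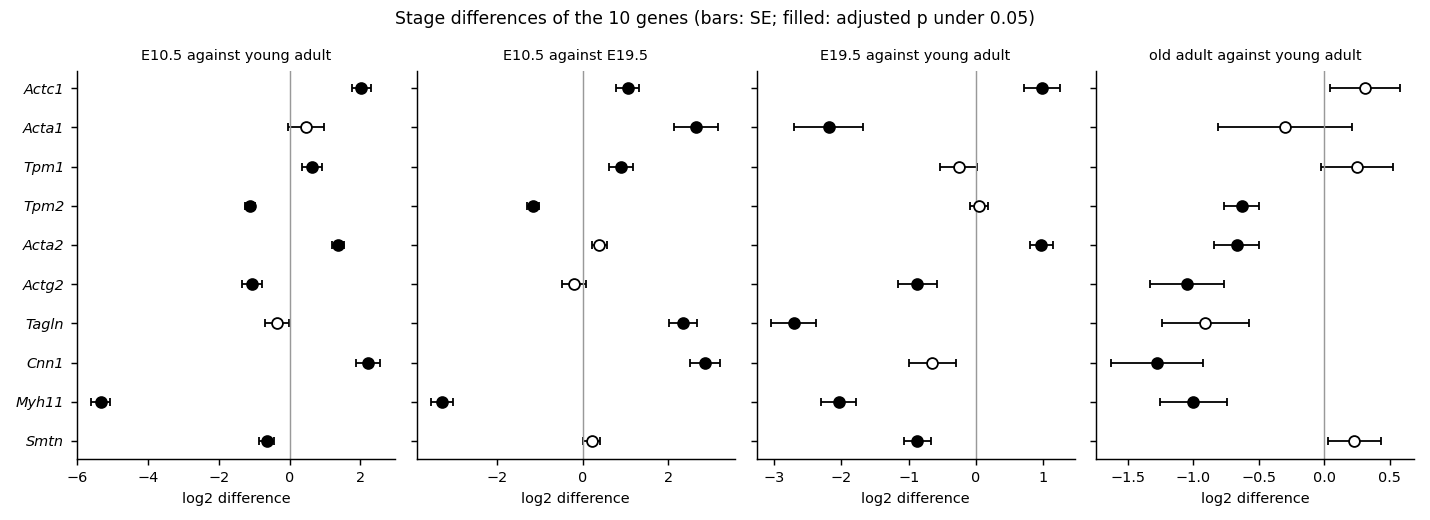
Log2 difference (horizontal axes, each with its own scale) of the 10 genes in 4 comparisons, as first minus second stage named above each panel; bars are SE and filled points have an adjusted p under 0.05. *Myh11* is at -5.34 in E10.5 against young adult, and the 5 filled points of old against young adult all lie below 0.

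Old adult hearts had lower levels of 5 of the 10 genes than young adult hearts, and 3.13% of all genes were called lower. The old adult arrays of *Cnn1* read 4.64, 4.04 and 4.26, those of *Actg2* 4.39, 3.77 and 4.47, and those of *Tpm2* 9.79, 9.94 and 10.43. The old adult means of *Cnn1* (4.31) and *Actg2* (4.21) were below 5, a level not counted as expressed. *Cnn1* fell by 1.28 on the log2 scale (SE 0.351, adjusted p = 0.023), *Actg2* by 1.05 (SE 0.286, adjusted p = 0.022), *Myh11* by 1.00 (SE 0.259, adjusted p = 0.016), *Acta2* by 0.67 (SE 0.170, adjusted p = 0.014) and *Tpm2* by 0.63 (SE 0.134, adjusted p = 0.0039). The old and young arrays of these 5 genes did not overlap, nor did those of *Tagln*, which was not called. The share of all genes without overlap was not counted. None of the 10 was called higher in limma (0 also at an unadjusted p under 0.05), beside 4.46% of all genes. *Tagln* was -0.91 (SE 0.334, adjusted p = 0.091), and *Acta1* read 10.98, 8.37 and 8.64 in old adults, the male array being the high one. The calls rest on the spread shared over all stages: with the 6 adult arrays alone 0 of 10 were called. Without the female young adult array 2 were called (*Tpm2* and *Myh11*), and without the mixed old adult array 1 (*Tpm2*). The 3′ minus 5′ difference of the *Actb* controls was 2.88 on old and 2.83 on young adult arrays, and that of *Gapdh* was 2.32 and 1.84. The hybridization controls were lower on old adult arrays (11.37 against 12.17). The mean of 5 endothelial markers lay between 7.39 and 8.15 on old adult arrays and between 6.90 and 7.15 on young adult ones.

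From day to day, 2 of 90 gene steps were called, both of *Tagln* and both downward: E11.5 against E10.5 (-1.22, SE 0.334, adjusted p = 0.044) and E13.5 against E12.5 (-1.52, SE 0.334, adjusted p = 0.022). Over all genes and the 9 steps, 0.288% of steps were called higher and 0.369% lower. No upward step of the 10 genes was called (0 of 90 in limma, 6 at an unadjusted p under 0.05); with only the 2 stages of a step in the fit 4 steps were called, 1 of them upward (*Actg2*). Without single arrays the count ranged from 0 to 4, and 0 steps were called with the hybridization controls or the 3′ minus 5′ difference as a covariate. Over the whole embryonic series the F-test called 8 of the 10 genes, all but *Acta2* (adjusted p = 0.092) and *Smtn* (adjusted p = 0.063), beside 50.2% of all genes. *Myh11* had the smallest adjusted p (1.2e-12), followed by *Tagln* (2.8e-10) and *Cnn1* (1.6e-08).

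**Figure D5:**
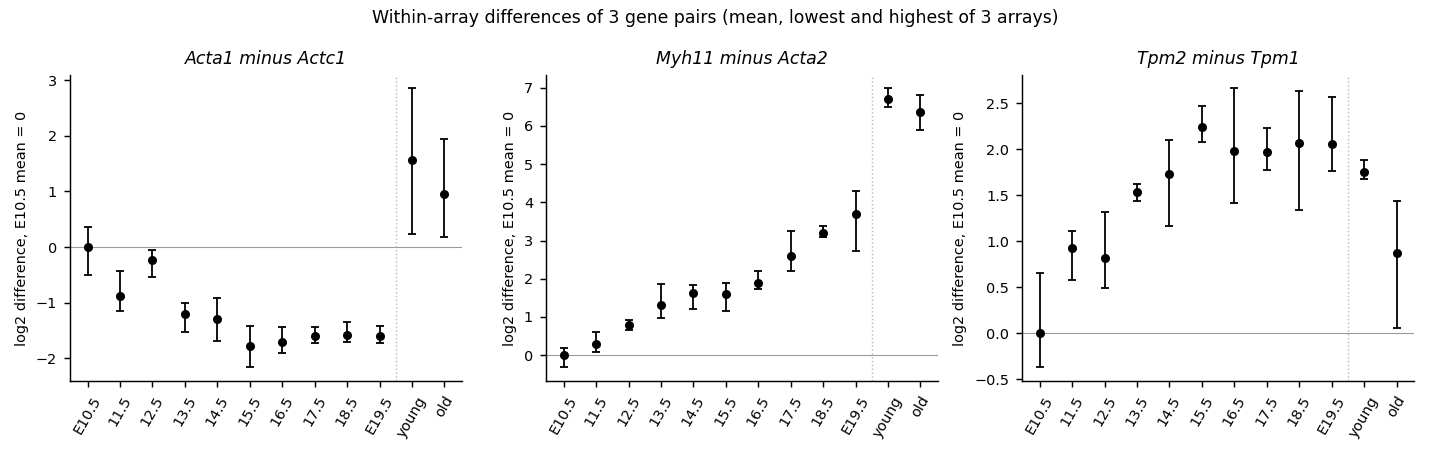
Within-array log2 difference of 3 gene pairs by stage, with the E10.5 mean set to 0; points are means of 3 arrays and bars reach from the lowest to the highest array. *Myh11* minus *Acta2* reaches 3.69 by E19.5 and 6.70 in young adults.

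The 2 vascular smooth muscle genes *Myh11* and *Acta2* moved apart. Relative to E10.5, *Myh11* minus *Acta2* was 1.62 ± 0.35 (SD, n = 3) by E14.5 and 3.69 ± 0.85 by E19.5. It was 6.70 ± 0.25 in young and 6.37 ± 0.46 in old adults. Among the arrays of 1 stage, deviations from the stage mean ran together for *Actc1*, *Tpm1*, *Actg2* and *Cnn1* (r = 0.62 to 0.82 over 36 arrays for the 6 pairs). All 4 also ran against the hybridization controls (r = -0.64 to -0.80), whose part in this was not tested. *Acta1* ran with *Tpm1* (r = 0.82) and *Actc1* (r = 0.66) as well, and less with *Cnn1* (r = 0.38) and *Actg2* (r = 0.28). *Myh11* followed *Tagln* within stages (r = 0.53) and ran near 0 with *Acta1* and *Actc1* (r = 0.00 and 0.06). At E19.5, for example, the mixed array was the lowest for both *Myh11* (5.80) and *Tagln* (5.39).

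No difference between male and female arrays was called in the 10 genes (9 pairs from E13.5 to old adult, limma with stage as a block; 0 called, and 0 at an unadjusted p under 0.05). Over all genes 0.0435% were called. The differences, male minus female, lay between -0.30 for *Actg2* (SE 0.146) and 0.15 for *Acta1* (SE 0.275). In single stages, with 1 array of each sex and no test, an absolute difference above 1 occurred for 3 of the 10 genes in young adults: *Acta1* (1.84), *Cnn1* (-1.57) and *Actg2* (-1.13). In that stage 3.00% of all genes differed by as much. In old adults *Acta1* differed by 2.34 (2.97% of all genes) and at E16.5 by -1.03 (0.203%).

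Other genes of the pathway were read from lists chosen as a whole. Of 12 further smooth muscle contractile and cytoskeletal genes, 7 were lower and 2 higher at E10.5 than in young adults, with a median of -0.62, beside 38.6% lower and 28.5% higher over all genes. The 2 higher ones were *Myl9* (2.01, adjusted p = 0.00011) and *Synpo2* (1.74, adjusted p = 9.3e-06), named after their values were seen. *Aoc3*, an amine oxidase of vascular smooth muscle, was at -3.60 (SE 0.221, adjusted p = 8.1e-15), *Mylk*, the myosin light chain kinase, at -3.44 (SE 0.155, adjusted p = 4.7e-18) and the integrin *Itga8* at -2.93 (SE 0.413, adjusted p = 4.3e-07). The E10.5 means of *Aoc3* (4.01) and *Mylk* (4.71) were below 5, so that these differences too are against a level not counted as expressed. In old against young adults 3 of the 12 were lower, *Itga8* among them (-1.61, SE 0.413, adjusted p = 0.016), and 0 higher. Over all genes 3.13% were lower and 4.46% higher there. Of the 7 non-muscle actins, tropomyosins and calponins, 4 were higher at E10.5 and 0 lower, led by *Cnn3* (1.60, SE 0.156, adjusted p = 3.2e-10), *Cnn2* (1.00, SE 0.162, adjusted p = 4.7e-06) and *Tpm4* (0.43, SE 0.189, adjusted p = 0.050).

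Of 10 striated thin filament and Z-disc genes, 5 were higher and 2 lower at E10.5 than in young adults. Over all genes 28.5% were higher and 38.6% lower. The fetal troponin *Tnni1*, whose young adult mean of 4.02 was also below 5, was at 6.69 (SE 0.323, adjusted p = 2.5e-17), *Nebl*, a Z-disc protein, at 3.05 (SE 0.250, adjusted p = 7.7e-12) and the adult cardiac troponin *Tnni3* at -1.94 (SE 0.156, adjusted p = 5.2e-12). Of serum response factor and its cofactors, 8 of 10 listed symbols were measured. At E10.5, 4 were higher and 2 lower, beside the same 28.5% and 38.6% of all genes. *Srf* itself was 1.76 higher (SE 0.261, adjusted p = 9.8e-07). Its cofactor *Myocd* was 2.50 higher (SE 0.154, adjusted p = 8.9e-15) and the muscle gene regulator *Tead1* 2.34 higher (SE 0.185, adjusted p = 3.2e-12), while *Klf4*, a repressor of smooth muscle genes, was at -1.84 (SE 0.363, adjusted p = 7.2e-05). Between E10.5 and E19.5 *Myocd* differed by -0.17 (adjusted p = 0.37). Over the same span the stage mean of *Srf* went from 7.47 to 6.40, that of *Tead1* from 9.91 to 8.81 and that of *Klf4* from 6.81 to 7.48. Of the 8 measured genes, 2 were called higher and 1 lower at E10.5 than at E19.5, beside 23.6% and 26.2% of all genes. Their part in the rise of *Myh11* and the fall of *Cnn1* was not tested.

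Markers of other cell types also changed between stages, and their part in the results was not tested. Of 7 markers of pericytes and vascular mural cells, 4 were lower and 3 higher at E10.5 than in young adults. Over all genes 38.6% were lower and 28.5% higher. The lower ones were *Rgs5* (-5.21, adjusted p = 3.2e-18), *Kcnj8* (-2.16, adjusted p = 4.5e-11), *Notch3* (-1.73, adjusted p = 1.9e-10) and *Pdgfrb* (-1.71, adjusted p = 4.5e-09). The higher ones were *Mcam* (2.25, adjusted p = 1e-06), *Abcc9* (1.29, adjusted p = 0.00017) and *Cspg4* (0.75, adjusted p = 0.00012). The mean of the 7 markers lay between 6.6 and 6.68 on the E10.5 arrays, between 7.86 and 8.04 on those of E19.5, and between 7.43 and 7.67 in young adults. In old adults it lay between 7.65 and 8.31, beside the lower *Myh11*, *Cnn1* and *Acta2*. There 1 marker was called higher than in young adults and 0 lower, against 4.46% and 3.13% of all genes. Of 6 fibroblast markers 2 were lower and 2 higher at E10.5 than in young adults, and of 5 endothelial markers 3 were lower and 0 higher. The shares of all genes are the same 38.6% and 28.5%. Of 11 skeletal muscle markers, *Mylpf* was the single one with any stage mean above 5 (7.16 at E10.5 and 5.55 in young adults).

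Genes outside the list whose 12 stage means ran most like those of a member were sought among 11307 genes with a stage mean above 5. For *Myh11* they were the laminin-binding integrin *Itga7* and *Xaf1* (Pearson's r = 0.994 for both). They were *Bambi* and *Lrch2* for *Cnn1* (0.973 and 0.971), *Ap2b1* and *Rps3a1* for *Tagln* (0.983 and 0.978), *Eif3m* and *Asnsd1* for *Acta1* (0.991 and 0.983) and *Tbl3* and *Khdrbs3* for *Actc1* (0.986 and 0.983). For *Acta2* they were *Fastkd1* and *Usp10* (0.965 for both), for *Tpm1* *Ostc* and *Thoc3* (0.982 and 0.976), and for *Tpm2* *Fmod* and *Sfswap* (0.973 and 0.966). *Serpinb6a* and *Acad11* came nearest to *Smtn* (0.986 for both), and *Gas1* and *Adamts15* to *Actg2* (0.882 and 0.864). These values describe 12 points that share arrays and controls, and they were selected as the highest of many.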

How the data were processed

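Per the labels and the study's methods, RNA of heart tissue was labelled with the 3′ IVT Express kit and hybridized to Affymetrix Mouse430_2 arrays. The deposited values are log2 intensities that the authors made by robust multi-array average (RMA: background correction, quantile normalization and summary of each probe set), and the submitters' notes name Affymetrix Expression Console and Partek 6.6. They were used as deposited. A limma 3.58.1 model (R 4.3.3) with 12 stage means was fitted to all 36 arrays and 45101 probe sets, with Benjamini-Hochberg adjustment within each comparison and calls at an adjusted p under 0.05. Male and female arrays were compared with stage as a block. Each gene was read from its probe set with the highest mean over 36 arrays, and 20701 genes read this way gave the background. The study describes the arrays as biological triplicates; p-values measure the spread between these arrays, 3 a stage, whose number limits the precision. All 10 genes, every probe set, the 2 nearest patterns, the 3 largest differences of each gene list with *Srf* and *Myocd*, and cell type markers were named by rule. Members and lists were chosen with earlier results of these data known. Promoters and coordinates come from RefSeq GRCm38.p6. Alternatives concerned normalization, centring, filter, probe set choice, variance model, arrays in the fit, covariates, blocks and leaving out each array. Procedures were tested on simulated data.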

Additional observations from a re-analysis of the deposited data

How the results depend on the processing

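Of 50 differences (10 genes in 5 comparisons), 445 of the values under alternative settings stayed on their side of the threshold, 30 lost the call, 17 gained it and 8 changed sign where at least 1 of the fits made a call. Of the 445, 20 changed sign, all of them differences not called in either fit. Leaving out each of the 36 arrays left 1765 values on their side of the threshold, 14 of which changed sign without a call in either fit, with 31 calls lost, 4 gained and 0 sign changes of called differences. With the probe set of largest variance, *Tpm1* was -0.19 and *Tpm2* 1.42 in E10.5 against young adult, *Acta2* -0.68 in E19.5 against young adult and *Tpm2* 0.11 in old against young adult; another probe set was read there. With the hybridization controls as a covariate, *Acta1* was -2.28 and *Tpm1* -1.36 in E10.5 against young adult, and *Actc1* -0.03 and *Tpm1* -0.21 in E10.5 against E19.5; the cause was not tested.

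Counts of called genes moved as follows, and the cause was not tested. With quantile normalization 0 genes were called in E11.5 against E10.5 and 1 in the daily steps, and 1 passed the strict limits in E10.5 against young adult. Centring on expressed probe sets also left 1 there, and a log2 limit of 1 gave 5. With the largest variance as the choice of probe set, E11.5 against E10.5 gave 2 and the daily steps 4, and with the mean of all probe sets E11.5 against E10.5 gave 2 and old against young adult 3. With only the groups compared in the fit, which have fewer arrays to estimate the spread, old against young adult gave 0, E11.5 against E10.5 gave 0, the daily steps 4 (3 downward and 1 upward), and the strict limits 1 against young adult and 0 against E19.5. With the hybridization controls as a covariate, E11.5 against E10.5 gave 0, the daily steps 0 and the strict limits 1 in E10.5 against E19.5. The title prefix, which changes at E16.5, as a covariate gave 5 in E10.5 against young adult, 0 in E11.5 against E10.5, 1 in the daily steps, 73 over all stage comparisons, and 1 at the strict limits in each comparison. With the 3′ minus 5′ difference as a covariate, an alternative chosen after seeing the data, E19.5 against young adult gave 4, E11.5 against E10.5 gave 0, the daily steps 0 and the F-test 4.

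Leaving out 1 array gave 7 to 8 genes in E10.5 against young adult, 6 to 8 in E10.5 against E19.5, 6 to 7 in E19.5 against young adult, 1 to 6 in old against young adult, 0 to 3 in E11.5 against E10.5, 0 to 4 in the daily steps, 106 to 117 over all stage comparisons, 7 to 10 in the F-test, 0 to 0 in male against female, and at the strict limits 1 to 3 against young adult and 2 to 4 against E19.5. The daily count moved without E10.5 replicate 1, 2 or 3, E11.5 replicate 2 or 3, E12.5 replicate 2 or 3, E13.5 replicate 3, E15.5 replicate 1 or 3, or E16.5 replicate 3. At E10.5 and E11.5 the labels share replicate numbers. Deviations of same-numbered arrays correlated at 0.14, -0.21 and 0.12 over all probe sets, so that the numbers were not taken as pairs; the replicate block gave 1 called gene, *Tagln* (-1.22, adjusted p = 0.048), as without it. Expressed probe sets shifted as a whole between E10.5 and young adult by 0.53, which centring removes: *Tpm1* then lost its call (0.10, adjusted p = 0.69) and *Tagln* was called lower.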
